A study of Mus musculus with 22 samples.

Results

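The 6 genes Sox2, Id4, Sox4, Sox11, Dcx and Neurod1 mark successive steps of neuron production in the adult hippocampus. They were followed across the cells of the mouse hippocampus, chosen by name as 6 rows of a count table of 13685 genes. All 6 were counted in each of the 22 animals, as were 12614 genes in all. New granule neurons arise in the dentate gyrus from radial glia-like stem cells, which pass through dividing progenitors and neuroblasts before they mature. Sox2 encodes a transcription factor of stem cells that astrocytes and oligodendrocyte precursors also carry, and Id4 encodes an inhibitor of basic helix-loop-helix factors that is found in stem cells and astrocytes. Sox4 and Sox11 encode related SOX transcription factors of committed progenitors and young neurons. Neurod1 encodes a basic helix-loop-helix factor of granule neuron differentiation, and Dcx encodes doublecortin, a microtubule-binding protein of migrating neuroblasts.

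Libraries were made by Drop-seq, a droplet method that tags the RNA of each cell on a barcoded bead, from the hippocampus of a single mouse each, all of the strain label Fvb/B6. There were 5 old WT animals (32 to 40 weeks), 4 old rTg4510 (32 to 38 weeks), 3 old P301L (41 to 48 weeks), 3 old rTta (33 weeks), 4 young WT (5 to 6 weeks) and 3 young rTg4510 animals (4 to 5 weeks). WT animals are littermates with neither transgene, and the design text of the series puts the young animals at 2 to 4 weeks, below the ages in the sample labels given here. In rTg4510 mice, mutant (P301L) human tau is expressed from a responder transgene that needs a transactivator, itself under the Camk2a promoter of forebrain excitatory neurons. The names P301L and rTta stand for animals with only the responder or only the transactivator, although the labels give no more than the names.

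Each animal had 780831 to 6039656 counts in total, and 27198 barcodes with at least 300 counts were kept. The median count per kept barcode was 638 to 2021 among the animals. Barcodes were clustered without the 6 genes and named from marker genes that also excluded them, so that the levels below were not used to make the classes. In all, 18.3% of the barcodes stayed unnamed. Mapt, the gene of tau, averaged 982.6 ± 99.996 CPM, the count per 1000000 counts, in young rTg4510 animals (SD, n = 3) and 487 ± 81.0 in young WT animals (n = 4), summed over all cells. One library, old rTg4510 replicate 3, held 34.0% choroid plexus cells, against up to 11.3% in the other animals. The P301L and rTta animals come from a separately merged part of the table, so their comparisons with WT also compare the parts. Their median counts per barcode were lower too, at 638 to 729.5 and 722.5 to 814.5, against 817 to 1555 in old WT animals. Every P301L animal (41 to 48 weeks) was older than every old WT animal (32 to 40 weeks). Genotype, part, depth and, for P301L, age cannot be told apart. Of the kept barcodes, 397 (1.46%) shared a barcode sequence with another animal, and none of them was an immature neuron.

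On the mouse build mm10 (GRCm38), Sox2 lies on chromosome 3 (34650405 to 34652461), Sox11 on chromosome 12 (27334264 to 27342574) and Sox4 on chromosome 13 (28948919 to 28953713). Each of these SOX genes is a single exon in the GENCODE annotation. Id4 has 3 exons on chromosome 13 (48261228 to 48266026), Neurod1 has 2 exons on chromosome 2 (79452521 to 79456751) and Dcx has 5 to 7 exons on chromosome X (143855842 to 143933311). Sox2 lies within the noncoding gene Sox2ot on the same strand, Neurod1 overlaps Cerkl on the same strand, and Id4, Sox4 and Neurod1 overlap noncoding genes on the opposite strand. Whether counting used the strand is not given in the sources used here, so reads of these overlapping genes cannot be told apart. Sox11 and Dcx overlap no annotated gene.

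The 4 genes that were high together in immature neurons (Sox11, Neurod1, Dcx and Sox4) are shown by the bases just before their annotated starts, from RefSeq (GRCm38.p6), 5′ to 3′ on the strand of the gene. Capitals mark matches to the E-box letters CANNTG, the kind of site that basic helix-loop-helix factors such as Neurod1 bind, searched on both strands. The windows end where either annotation places the start, so they are of unequal length.
Sox11, chr12:27342719-27342968, minus strand: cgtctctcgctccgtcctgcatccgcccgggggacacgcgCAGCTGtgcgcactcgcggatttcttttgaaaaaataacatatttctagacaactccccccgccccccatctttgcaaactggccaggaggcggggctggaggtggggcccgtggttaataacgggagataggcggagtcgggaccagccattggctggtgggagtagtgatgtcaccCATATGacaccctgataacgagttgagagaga
Neurod1, chr2:79456752-79456886, minus strand: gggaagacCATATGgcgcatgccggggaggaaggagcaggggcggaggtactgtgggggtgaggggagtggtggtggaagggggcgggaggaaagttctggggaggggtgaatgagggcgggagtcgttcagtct
Sox4, chr13:28953714-28953949, minus strand: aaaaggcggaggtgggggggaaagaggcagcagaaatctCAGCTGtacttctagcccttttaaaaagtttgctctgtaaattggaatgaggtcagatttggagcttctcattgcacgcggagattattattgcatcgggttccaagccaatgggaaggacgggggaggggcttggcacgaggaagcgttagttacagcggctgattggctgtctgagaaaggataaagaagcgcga
Dcx, chrX:143933312-143933469, minus strand: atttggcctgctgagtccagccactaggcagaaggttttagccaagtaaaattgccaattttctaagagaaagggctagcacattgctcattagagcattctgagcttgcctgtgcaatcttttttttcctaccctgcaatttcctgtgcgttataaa
Over the 250 bases before the RefSeq start, Sox11 had 2 matches, Sox4 and Neurod1 1 each, and Dcx, Sox2 and Id4 none. Of 32851 windows of the same length, 66.2% held at least 1 match, so the letters are common. CAGATG, an E-box form, matched none of the 6 genes and 14.4% of all windows. ACAAAG, a SOX-type sequence, matched Sox2 and 1 of the 2 Dcx starts, and 16.5% of all windows. These matches are a description of letters and not of binding.

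Immature neurons were the class where Sox11, Neurod1, Sox4 and Dcx stood highest among the named classes. The class was 1 sub-cluster of 76 barcodes, 0.279% of all, that carried all 13 of the immature neuron markers found in the table, among them Cd24a, Calb2, Mex3a and Tubb2b. Pooled over the animals, Sox11 stood there at 3667 CPM (393 counts, 95% Poisson interval 3314 to 4048) and Neurod1 at 2025 (217 counts, 1764 to 2313). Sox4 stood at 1119.7 CPM (120 counts, 928 to 1339), and Dcx at 467 (50 counts, 346 to 615). These intervals cover counting error only. The same pooled levels in dentate granule neurons, the mature cells of this lineage, were 95.1 CPM for Sox11, 173 for Neurod1, 36.0 for Sox4 and 14.7 for Dcx. The intervals of the classes did not overlap for these 4 genes, which were picked as high in immature neurons. The share of all genes with such a gap is not given here. Sox2 in immature neurons stood at 121 CPM (13 counts, 64.6 to 207) and Id4 at 46.7 (5 counts, 15.1 to 109), both below their astrocyte level.

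**Figure D1:**
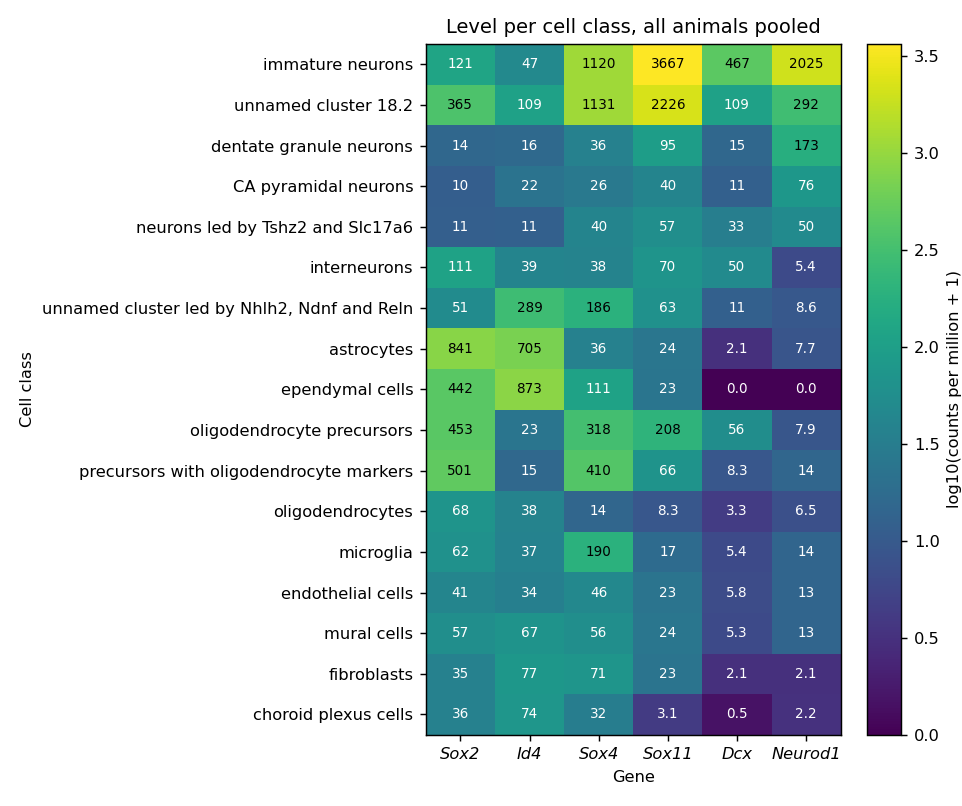
Pooled level of each gene (columns) in each cell class (rows), in CPM over all 22 animals, with colour on a log10(CPM + 1) scale and the CPM printed in each cell. Sox2 and Id4 are highest in glial and ependymal classes, whereas Sox11, Dcx and Neurod1 are highest in immature neurons, with Sox11 at 3667 CPM.

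Within the 76 immature neurons, Sox11 was counted in 74 barcodes (97.4%) with a median of 4 counts and a highest value of 17. Neurod1 was counted in 69 (90.8%), Sox4 in 45 (59.2%) and Dcx in 36 (47.4%). Sox2 was counted in 10 barcodes and Id4 in 3, and no barcode held both. Every barcode with Dcx also held Sox11, and 35 of the 36 also held Neurod1. All 4 of Sox4, Sox11, Dcx and Neurod1 were counted together in 23 barcodes (30.3%). The median depth of these barcodes was 1322.5 counts. After each barcode had been thinned to 500 counts, which left out none of the 76, Sox11 was found in 73.7% of immature neurons (exact binomial 95% interval 62.3 to 83.1) and Dcx in 19 of the 76 (15.8 to 36.3%). In astrocytes, with a median depth of 1312 counts and 2485 of 2629 barcodes deep enough, Sox11 was found in 1.09% and Dcx in 0.161% after the same thinning, against 3.04% and 0.266% without it. The astrocyte shares are given for comparison and were not flat over the groups. After thinning, Sox11 was found in 0.172% of old rTg4510 and 1.84% of young WT astrocytes. The intervals over barcodes do not cover the spread between animals.

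An unnamed sub-cluster of 15 barcodes, led by division genes such as Cenpf, Hmgb2 and Cenpa, lay beside the immature neurons. It carried Sox2 at 365 CPM (10 counts, 175 to 671), Sox4 at 1131 (31 counts, 769 to 1606) and Sox11 at 2226 (61 counts, 1703 to 2859). Neurod1 stood at 292 CPM (8 counts, 126 to 575) and Dcx at 109 (3 counts, 22.6 to 319.9). Compared with the immature neurons, Neurod1 and Sox11 were lower and Sox2 was higher, although the intervals of Sox2 overlapped and those of Sox4 did too. Of genes on the lists of the pathway, Ccnd2, a cyclin of dividing progenitors, stood at 3393 CPM in these 15 barcodes and at 252 in immature neurons. Pooled levels were higher there than in immature neurons for 15 of the 20 radial glia and stem cell genes, lower for 4 and 0 in both for 1. Among the 4 was Id2, at 292 CPM against 858. All 7 cycling and progenitor genes were higher, and 20 of the 23 neuroblast genes were lower. Some of these values rest on 1 count in the 15 barcodes. The share of all genes that were higher or lower is not given here. Neurod2, a factor of later neurons, had 0 counts in the 15 barcodes and stood at 728 CPM in immature neurons. These genes were among those clustered, the 3 named were chosen after their values were seen, and with 15 barcodes the levels are descriptions.

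Sox2 was a gene of astrocytes and of the oligodendrocyte lineage in these data. Astrocytes held 48.8% of all its counts, at 821 ± 351 CPM (SD, n = 22 animals). Oligodendrocyte precursors averaged 439.5 ± 117 (n = 20), and the 310 precursors with oligodendrocyte markers, led by Gpr17 and Enpp6, had a pooled level of 501 CPM (451 to 556). Ependymal cells stood at 442 (375 to 519), and the intervals of these last classes overlapped each other. Interneurons averaged 115 ± 49.7 CPM (n = 19), above dentate granule neurons at 16.7 ± 14.8 (n = 22). The genes whose class-by-animal levels were most like those of Sox2 were Bcan, Scrg1 and Npas3, with r = 0.84, 0.84 and 0.83. This likeness is a description over 222 sums of 15 named classes, which share libraries, among 10601 genes.

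Id4 followed astrocytes and ependymal cells. Astrocytes held 55.3% of its counts, at 726 ± 209 CPM (SD, n = 22 animals), and the 86 ependymal barcodes had a pooled level of 873 CPM (298 counts, 777 to 978). An unnamed cluster of 259 barcodes led by Nhlh2, Ndnf and Reln stood next, at 289 CPM (235 to 351). Oligodendrocyte precursors, which shared Sox2 with astrocytes, had 25.2 ± 23.98 CPM of Id4 (n = 20). Most like Id4 over the same 222 sums were Mlc1, Clu and Agt, with r = 0.86, 0.85 and 0.85.

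Sox4 was spread over more classes. Among named classes other than immature neurons it was highest in the 310 precursors with oligodendrocyte markers, at 410 CPM (365 to 460), and in oligodendrocyte precursors, at 325 ± 92.5 (SD, n = 20). Microglia averaged 229 ± 135 CPM (n = 22) and held 20.6% of its counts. After thinning to 500 counts, Sox4 was found in 9.69% of 2642 microglia (8.59 to 10.9), against 2.01% of astrocytes (1.497 to 2.644). Without thinning the shares were 16.8% and 5.14%, so the microglial share was above the astrocyte share either way. Most like Sox4 were Marcks, 0610040J01Rik and Ppp1r18, with r = 0.78, 0.72 and 0.67.

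Sox11, Dcx and Neurod1 shared the immature neurons but differed elsewhere. Among named classes Sox11 was next highest in oligodendrocyte precursors, at 187 ± 83.3 CPM (SD, n = 20), and in dentate granule neurons, at 94.05 ± 59.0 (n = 22). Among them Dcx was next highest in oligodendrocyte precursors and interneurons, at 49.6 ± 33.8 (n = 20) and 52.8 ± 21.9 (n = 19), which did not differ beyond their spread. Because immature neurons were so few, they held only 5.94% of the Dcx counts, beside 0.202% of the counts of all genes. Interneurons held 23.2% of the Dcx counts, beside 7.39% of all counts. A class of neurons led by Tshz2 and Slc17a6 held 22.9%, beside 11.1% of all counts. Neurod1 kept to the excitatory lineage, at 183 ± 54.9 CPM in dentate granule neurons (n = 22), 85.9 ± 36.5 in CA pyramidal neurons (n = 18) and 5.69 ± 7.13 in interneurons (n = 19). Most like Sox11 were 4833424O15Rik, Mgat5b and Dscam (r = 0.69, 0.68 and 0.68), and most like Dcx were Fxyd6, Podxl2 and Gria4 (r = 0.70, 0.68 and 0.68). Most like Neurod1 were Islr2, Gabra5 and Neurod2 (r = 0.80, 0.77 and 0.77).

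Immature neurons were more frequent in young than in old WT animals. The 4 young WT animals had 9, 7, 8 and 4 immature neurons, which is 0.890%, 0.439%, 0.5003% and 0.251% of their kept barcodes. The 5 old WT animals had 2, 0, 0, 0 and 1, which is 0.126%, 0, 0, 0 and 0.107%. Every young WT animal was above every old one. The mean share was 0.520% ± 0.269 (SD, n = 4) in young and 0.0466% ± 0.0641 (n = 5) in old WT animals, an 11.2-fold ratio of means (exact two-sided permutation test, p = 0.00794, the smallest this design allows, 0.0476 when adjusted over 6 comparisons). Of 4723 old WT barcodes, 3 were immature neurons (exact binomial 95% interval 0.0131 to 0.186%). This interval covers counting error only and not the spread between animals.

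The young rTg4510 animals had 26, 9 and 1 immature neurons, or 1.65%, 0.900% and 0.0909% of their barcodes. The old rTg4510 animals had 0, 3, 0 and 0, or up to 0.188%. The groups overlapped, since young rTg4510 replicate 3 lay below old rTg4510 replicate 2, and the difference did not pass (0.880% ± 0.780 against 0.0470% ± 0.0940, exact permutation p = 0.0571, adjusted p = 0.171). Young rTg4510 and young WT animals did not differ beyond their spread (exact permutation p = 0.400). Old rTg4510 and old WT animals had mean shares of 0.0470% and 0.0466% (exact permutation p = 1). Old P301L animals had 1, 1 and 0 immature neurons and old rTta animals 2, 1 and 1. Relative to immature and dentate granule neurons together, the immature share was 3.92% ± 2.32 in young WT, 11.7% ± 10.2 in young rTg4510 and 0.341% ± 0.469 in old WT animals.

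**Figure D2:**
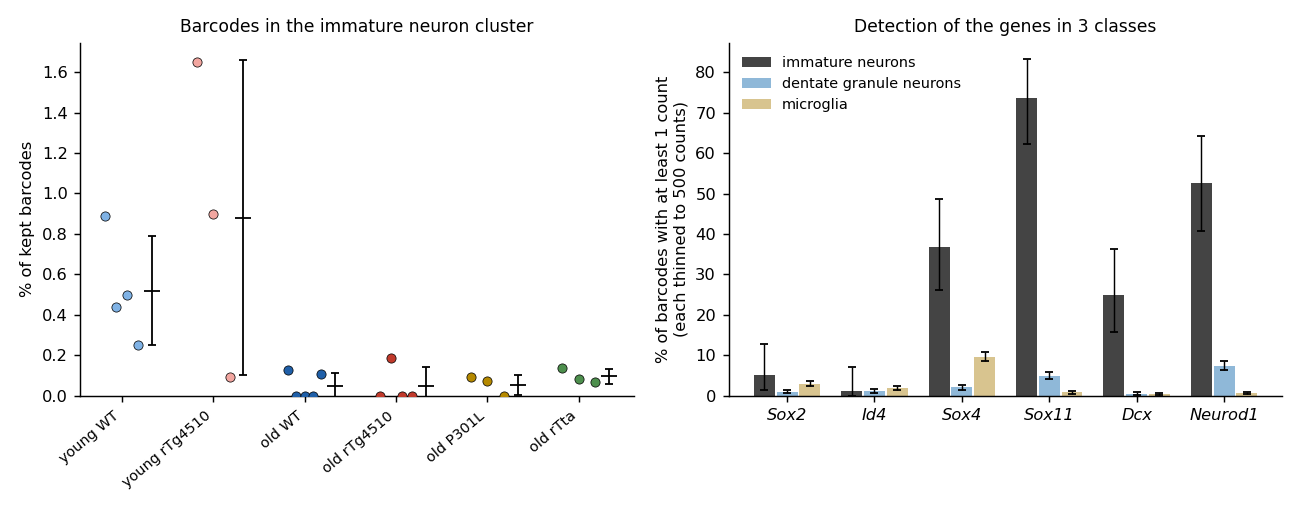
Left, share of kept barcodes in the immature neuron cluster for each animal (points), with the mean and SD beside each group (bars cut off at 0). Right, percentage of barcodes with at least 1 count of each gene after thinning to 500 counts, with exact binomial 95% intervals, where Sox11 reaches 73.7% in immature neurons. Every young WT animal lies above every old WT animal.

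The levels per immature neuron could be compared only as pooled values, since 1 animal alone had 20 or more of these cells. In young WT animals (28 barcodes) Sox11 stood at 5636 CPM (4871 to 6488), and in young rTg4510 animals (36 barcodes) at 2530 (2137 to 2973). Sox4 stood at 1598 CPM (1204 to 2080) and 792 (579.5 to 1056) in the same order. Dcx, at 465 (266 to 755) and 413 (265 to 614), and Neurod1, at 2179 (1714 to 2731) and 1841 (1509 to 2225), had overlapping intervals. The intervals cover counting error and not the spread between animals, and 26 of the 36 barcodes came from 1 animal. The 12 barcodes of all old animals had Sox11 at 3554 CPM (2654 to 4660) and Neurod1 at 2392 (1666 to 3326).

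A second count used Dcx and Sox11 directly, as the share of barcodes with both after thinning to 500 counts. It was 0.209% ± 0.180 (SD, n = 4) in young WT and 0.0270% ± 0.0604 (n = 5) in old WT animals, with 10 of 5518 and 2 of 4293 barcodes. This difference did not pass (exact permutation p = 0.127, adjusted over 6 comparisons 0.762), and young WT replicate 2 had none. Without thinning the shares were 1.30% ± 0.753 and 0.327% ± 0.133 (exact permutation p = 0.00794, adjusted 0.0476). Thinning left out 4.89% of young WT and 9.10% of old WT barcodes, and the thinned value is the one compared across depths.

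Summed over all cells of an animal, none of the 6 genes passed the test between any of the groups. In such sums, fewer cells of a type and less RNA per cell cannot be told apart. The comparison used edgeR's quasi-likelihood test with Benjamini-Hochberg adjustment over all genes tested, and a gene was called at an adjusted p under 0.05. Between old and young WT animals 0 of the 6 genes were called, as were 0.0% of the 12414 genes tested. Between old and young rTg4510 animals 0 of 6 were called beside 0.161% of all genes, and between old rTg4510 and old WT animals 0 of 6 beside 0.185%. At an unadjusted p under 0.05 there were 1, 2 and 3 of the 6 genes in these comparisons, beside 616, 976 and 1052 of the 12414 genes. DESeq2 called 0 of the 6 in each.

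Sox11 over all cells was 77.4, 39.7, 29.3, 36.4 and 80.5 CPM in old WT animals and 24.5, 26.4, 15.2 and 34.1 in old rTg4510 animals. The groups overlapped at the lowest WT and the highest rTg4510 animal, and the log2 difference of -1.05 ± 0.38 did not pass (edgeR adjusted p = 0.394). In replicate 3, at 15.2 CPM, choroid plexus cells gave 58.3% of the counts, and without them its Sox11 level was 31.8 CPM. In the young, it was 131, 106, 49.2 and 62.2 CPM in WT and 118, 62.8 and 27.0 in rTg4510 animals. The old rTg4510 level was lower than the young one by 1.44 ± 0.42 on the log2 scale (edgeR adjusted p = 0.168). Id4 averaged 148 ± 13.99 CPM (SD, n = 5) in old WT and 83.6 ± 19.8 (n = 4) in young WT animals, a log2 difference of 0.86 ± 0.23 (edgeR adjusted p = 0.441), and the groups did not overlap. Dcx was 12.4 ± 3.65 in old WT and 20.4 ± 7.59 in young WT animals, a log2 difference of -0.64 ± 0.37 (edgeR adjusted p = 0.9997).

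**Figure D3:**
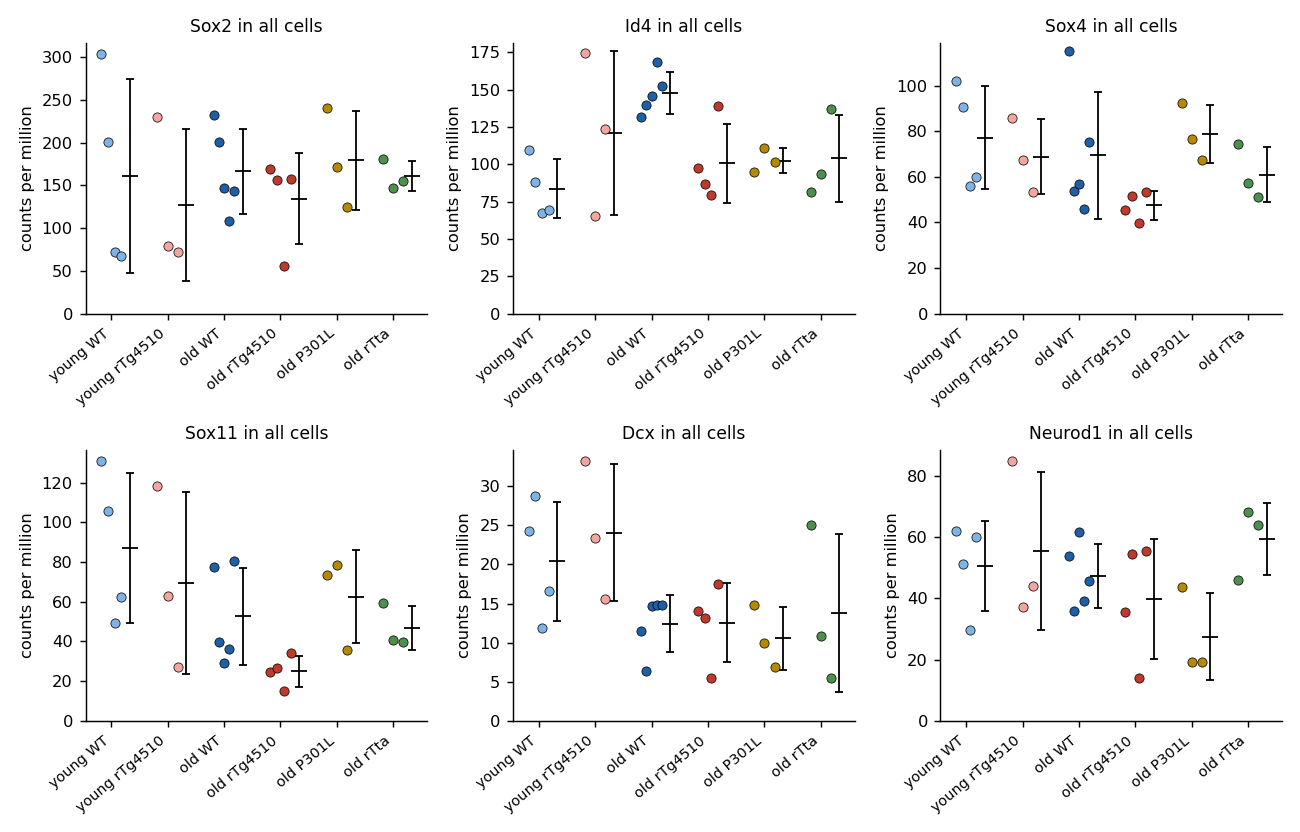
Level of each gene summed over all kept barcodes of an animal, in CPM, for the 6 groups. Points are animals, and the dash and bar beside them are the mean and SD. The 4 old rTg4510 animals have Sox11 between 15.2 and 34.1 CPM, and the young WT animals between 49.2 and 131.

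Within cell classes, 28 pairs of a gene and a class could be tested in most comparisons, because counts were summed per animal and needed 20 barcodes of a class. In old against young WT animals 0 of 28 pairs were called, beside 0.458% of all gene and class pairs, with 3 at an unadjusted p under 0.05 and 0 by DESeq2. In old against young rTg4510 animals the count was again 0 of 28, beside 0.368%, with 4 at an unadjusted p under 0.05 and 0 by DESeq2. In young rTg4510 against young WT animals it was 0 of 30, beside 0.123%, with 5 at an unadjusted p under 0.05 and 0 by DESeq2. The test of whether the age change differed between rTg4510 and WT called 0 of 28, beside 0.00645%, with 6 at an unadjusted p under 0.05 and 0 by DESeq2. In old rTg4510 against old WT animals 2 of 28 were called, beside 0.548%, and both were lower in rTg4510. DESeq2 also called 2. At an unadjusted p under 0.05 there were 7 of the 28 pairs, all lower in rTg4510. All genes at that level ranged from 353 of 7399 in CA pyramidal neurons to 654 of 4892 in microglia. For the other comparisons within classes the share over all genes at an unadjusted p is not given, so those counts are descriptions. The pairs share old WT animals with the P301L and rTta comparisons.

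Sox11 was lower in the dentate granule neurons of old rTg4510 than of old WT animals. It was 47.5, 21.97, 50.8 and 37.2 CPM in the 4 old rTg4510 animals and 108, 184, 45.6, 115 and 142 in the 5 old WT animals. Old WT replicate 3, with 5 counts, overlapped the rTg4510 range, and the other WT animals lay above it. The means were 39.3 ± 12.9 (SD, n = 4) and 119 ± 50.6 (n = 5), a log2 difference of -1.61 ± 0.37 (SE, edgeR adjusted p = 0.0114). In that class 0.577% of 6759 genes were called lower. Without old WT replicate 5 the adjusted p was 0.0609, and without old rTg4510 replicate 2 it was 0.103, with log2 differences of -1.49 and -1.39. Within the lower range of old animal numbers, the WT values were 108, 184 and 45.6 and the rTg4510 values 47.5 and 21.97. Within the higher range they were 115 and 142 against 50.8 and 37.2.

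The other groups place this value. Young WT dentate granule neurons had 96.0 ± 33.5 CPM of Sox11 (n = 4) and young rTg4510 had 83.2 ± 34.3 (n = 3), with a log2 difference of -0.26 ± 0.38 (edgeR adjusted p = 0.882). Old rTta animals had 85.4, 46.9 and 49.8 CPM, and old P301L animals had 210, 241 and 50.4. The difference of the age changes was -1.36 ± 0.54 on the log2 scale and did not pass (edgeR adjusted p = 0.863). Of the 13 immature neuron markers, none was at 0 in these barcodes, and their summed level was 618 to 1150 CPM in old WT and 863 to 1045 in old rTg4510 animals. The 10 dentate granule neuron markers summed to 1816 to 2561 CPM in old WT and 1570 to 1982 in old rTg4510 animals. The part of either set in the result was not tested. Neurod1 in the same cells was 168 ± 45.1 CPM in the old WT and 199 ± 58.9 in the old rTg4510 group (edgeR adjusted p = 0.705). Stmn2, a microtubule regulator on the neuroblast list, was the only 1 of 18 tested genes of that list to pass, and it was higher by 1.36 ± 0.28 on the log2 scale (edgeR adjusted p = 0.00427). The median log2 difference of that list was -0.22, beside -0.01 over all genes. Stmn2 is also 1 of the 13 immature neuron markers summed above. It was higher in young rTg4510 than in young WT dentate granule neurons too, by 1.53 ± 0.29 (edgeR adjusted p = 0.00321).

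Sox4 was lower in the microglia of old rTg4510 than of old WT animals. It was 75.2, 101, 61.2 and 148 CPM in the old rTg4510 animals and 436, 282, 229, 128 and 368 in the old WT animals. Only old WT replicate 4 lay inside the rTg4510 range. The means were 96.4 ± 38.2 (SD, n = 4) and 288 ± 119.8 (n = 5), a log2 difference of -1.42 ± 0.38 (edgeR adjusted p = 0.0290). In microglia 0.531% of 4892 genes were called lower. The adjusted p was 0.171 without old WT replicate 1, 0.0708 without old WT replicate 5, 0.117 without old rTg4510 replicate 1, 0.0911 without replicate 2 and 0.0528 without replicate 3. With at least 50 barcodes of the class per animal it was 0.0699.

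The microglia came from clusters 13 and 14, of which the second carried less Sox4 (109 CPM, 85.0 to 139) than the first (206, 190.3 to 223). Cluster 14 had all 10 microglia markers, but its leading genes were Mrc1, Wfdc17, Stab1, Clec10a and Ccl2. Mrc1 is on the marker list of perivascular macrophages. Only 1 marker of that list could be used, so the naming rule of 3 markers could not give that name. Whether cluster 14 holds such macrophages was not tested. Cluster 14 made up 24.1% of old WT and 15.4% of old rTg4510 microglia. In cluster 13 alone, Sox4 was 318 ± 175 CPM in old WT (n = 5) and 99.1 ± 35.8 in old rTg4510 animals (n = 4). Young rTg4510 microglia had 144 ± 43.9 CPM (n = 3) and young WT microglia 282 ± 147 (n = 4), a log2 difference of -0.97 ± 0.45 that did not pass (edgeR adjusted p = 0.425). Old rTta microglia had 206 ± 68.5 CPM and old P301L microglia 341 ± 203 (n = 3 each). Oligodendrocyte precursor markers, the other class rich in Sox4, summed to 149.8 to 1417 CPM in old WT and 193 to 1107 in old rTg4510 microglia, with none of 13 at 0. Their part in the result was not tested. On the lists, Ncam1, a neural adhesion molecule, and Ccnd1, a cyclin, were lower in these microglia by 1.22 and 1.20 on the log2 scale (edgeR adjusted p = 0.0180 and 0.0449).

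**Figure D4:**
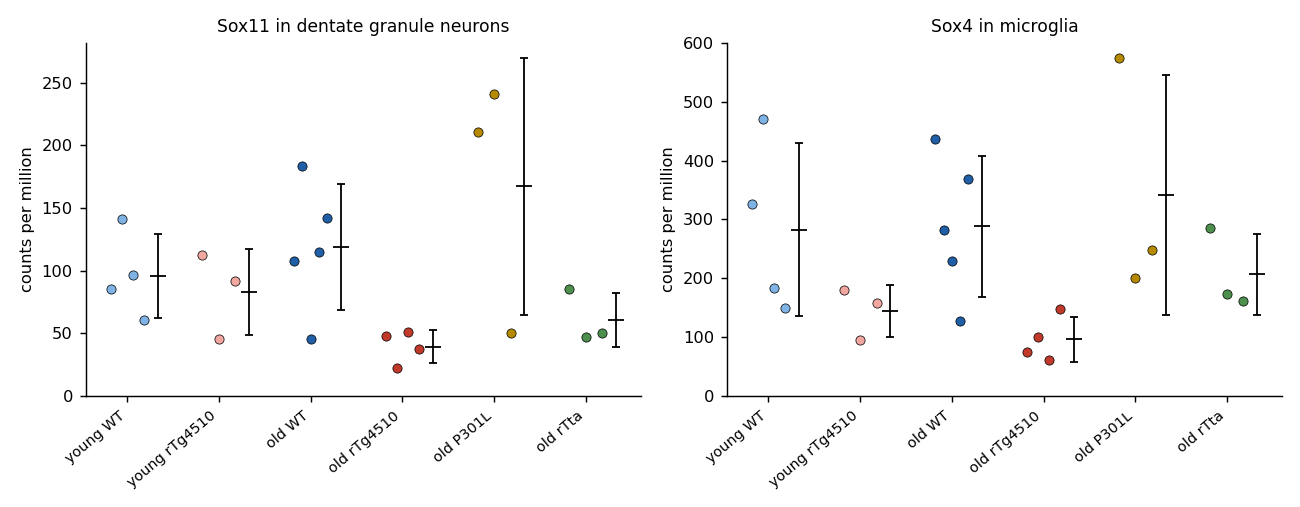
Sox11 in dentate granule neurons (left) and Sox4 in microglia (right), in CPM summed per animal, for animals with at least 20 barcodes of the class. Points are animals and the bars are the mean and SD. The old rTg4510 animals lie at 21.97 to 50.8 CPM for Sox11 and 61.2 to 148 for Sox4.

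In oligodendrocyte precursors, Sox4 and Sox11 gave no call. Sox11 was 98.1 ± 22.6 CPM in old rTg4510 (n = 3), 156 ± 84.6 in old WT (n = 5), and among the young 250 ± 53.1 in WT (n = 4) and 264 ± 121 in rTg4510 animals (n = 2). Its log2 difference between old and young rTg4510 animals was -1.51 ± 0.42 (edgeR adjusted p = 0.4999). Sox4 was 380 ± 83.8 in the old WT group and 238 ± 50.7 in the old rTg4510 group (edgeR adjusted p = 0.601), and Sox2 was 443.5 ± 146 and 439 ± 33.0 in that order (edgeR adjusted p = 0.995). In astrocytes, Id4 was 562 ± 257 CPM in old rTg4510 (n = 4) and 897 ± 178 in old WT animals (n = 5), a log2 difference of -0.62 ± 0.25 (edgeR adjusted p = 0.431). Hes5, a Notch target of stem cells and astrocytes, was lower there by 1.36 ± 0.30 on the log2 scale (edgeR adjusted p = 0.0271).

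In old P301L against old WT animals 2 of 19 pairs were called, both lower in P301L, beside 1.06% of all gene and class pairs. These groups also differ in table part, age and depth, as given above. Sox2 in microglia was 17.7, 22.3 and 49.7 CPM in P301L and 133, 197, 45.7, 128 and 54.5 in old WT animals. The groups overlapped at P301L replicate 3 and WT replicate 3, and the log2 difference was -1.87 ± 0.54 (edgeR adjusted p = 0.0342). In microglia 4.11% of genes were called lower. The counts behind these values were 2 to 25 per animal. Cluster 14, the one led by Mrc1, held 11.9% of P301L and 24.1% of old WT microglia. It carried 163 CPM of Sox2 against 41.9 in cluster 13. The 12 astrocyte markers in the same barcodes, none at 0, summed to 1423 to 3118 CPM in P301L and 2901 to 7432 in old WT animals. Their part in the result was not tested. The adjusted p was 0.177 without P301L replicate 1, 0.183 without P301L replicate 2 and 0.0611, 0.0618 and 0.0855 without old WT replicates 1, 2 and 4. With at least 50 barcodes per animal it was 0.0569.

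Id4 in oligodendrocytes was 26.05, 10.6 and 17.8 CPM in P301L and 48.5, 61.2, 72.3, 101 and 50.2 in old WT animals. The groups did not overlap, and the log2 difference was -1.92 ± 0.50 (edgeR adjusted p = 0.0441). In oligodendrocytes 1.12% of genes were called lower. The astrocyte markers in these barcodes summed to 920.3 to 1319 CPM in P301L and 1859 to 5368 in old WT animals, with none of 12 at 0, and their part was not tested. Id4 in astrocytes themselves was 674 ± 66.4 CPM in P301L (n = 3) and 897 ± 178 in old WT animals. The call was lost in 15 of 27 alternatives, with adjusted p up to 0.292 (without P301L replicate 2). On the lists, Hes5, Sox9, Stmn2, Neurod6, Id2 and Gap43 were lower in P301L oligodendrocytes, for instance Sox9 by 3.13 ± 0.66 on the log2 scale (edgeR adjusted p = 0.0138). In microglia Tubb3, Neurod6, Nfib, Stmn2, Ncam1 and Gap43 were lower, and Thrsp was higher by 1.33. The 9 neuron markers summed to 763 to 1114 CPM in P301L and 3024 to 7949 in old WT microglia. In oligodendrocytes these markers summed to 437 to 599 CPM in P301L and 1306 to 3473 in old WT animals. Their part in the list results was not tested.

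**Figure D5:**
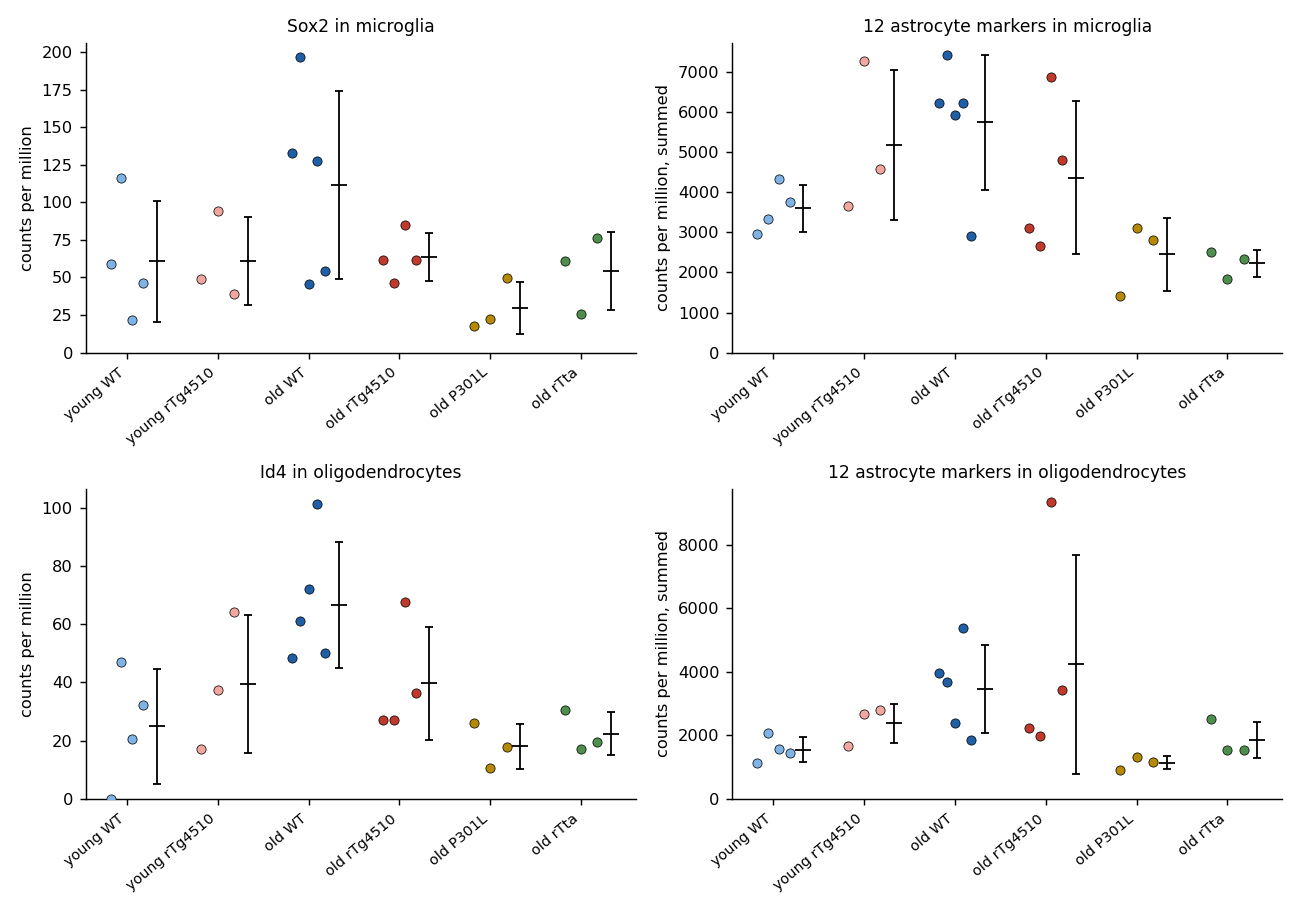
Sox2 in microglia and Id4 in oligodendrocytes (left) beside the summed level of 12 astrocyte marker genes in the same barcodes (right), in CPM per animal. Points are animals and bars are the mean and SD. In oligodendrocytes the P301L animals lie at 10.6 to 26.05 CPM of Id4 and at 920.3 to 1319 CPM of the markers.

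In old rTta against old WT animals 0 of 28 pairs were called, beside 0.669% of all pairs, with 4 at an unadjusted p under 0.05 and 0 by DESeq2. Among these pairs Id4 in microglia had the lowest adjusted p, at 15.9 CPM in rTta and 69.2 in old WT animals (edgeR adjusted p = 0.0882). In oligodendrocytes it was 22.4 ± 7.30 and 66.7 ± 21.6 (edgeR adjusted p = 0.132). Between old and young WT oligodendrocytes Id4 was higher in the old, at 66.7 ± 21.6 against 24.9 ± 19.8 CPM, a log2 difference of 1.17 ± 0.38 that did not pass (edgeR adjusted p = 0.0779). Hopx, Hes5, Sox9, Ccnd1, Neurod6 and Gap43 were higher there and Marcksl1 and Lpar1 lower, all 8 past the threshold. Hopx led these with a log2 difference of 2.54 ± 0.37 (edgeR adjusted p = 9.0e-05). In the same barcodes the 12 astrocyte markers summed to 1131 to 2063 CPM in young WT and 1859 to 5368 in old WT animals. The 9 neuron markers summed to 1259 to 1663 and 1306 to 3473 in that order. The part of either set in these results was not tested. The 8 genes came from 31 list genes tested in oligodendrocytes, where 3.40% of all 6005 genes passed. No list gene passed in another class (8 of 264 pairs in all). In old rTg4510 against old WT animals, 1 of 264 list pairs was called higher and 3 were called lower.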

How the data were processed

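Drop-seq libraries came from 22 mice. The authors deposited 1 table of raw counts per gene and barcode, demultiplexed with bcl2fastq 2.18.0.12 and aligned with STAR (given as 2.2) to mm10, per the submitters' processing notes. Read 1 holds a cell barcode and a molecular identifier, per the labels. The counting tool, its use of strand and whether identifiers were collapsed are not given in the sources used here. The table was merged from 2 parts, so only the 12614 genes counted in all animals entered the fits.

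Barcodes with at least 300 counts were scaled to 10000, and 2000 variable genes, 40 components and 15 neighbours gave Leiden clusters at resolution 1 (scanpy 1.11.5), with the 6 genes left out. Clusters were named when at least 3 fixed markers stood 2-fold above the others; details of this rule and the splitting of 1 mixed cluster were chosen with the clusters in view. No doublet caller was run. Counts were summed per animal and class (at least 20 barcodes) and fitted over all groups with edgeR 4.0.16 (TMM, filterByExpr, robust quasi-likelihood F test) in R 4.3.3, with Benjamini-Hochberg adjustment within a class at 0.05, tested on simulated data. DESeq2 1.42.0 was an alternative. SE is the log2 change divided by the square root of F. Shares were compared by exact two-sided permutation over animals. The members and lists were chosen with earlier results of these data known. Of other genes, those named are list genes past the threshold (at most 10 a comparison) and the 3 most like each member by Pearson r of log2(CPM + 20). Separate mice are the replicates.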

Additional observations from a re-analysis of the deposited data

Results flagged for a closer look

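In 4 of 36 sets of values checked, each from a group of 4 or 5 animals, 1 animal lay far from the others. The rule is set so that chance marks about 1 in 20 groups. That rate does not hold for the shares below, since a group with 1 animal above 0 is always marked. Sox2 summed over all cells was 55.2 CPM in old rTg4510 replicate 3, against 157 to 169 in the other 3 animals of the group. That library is the one with 34.0% choroid plexus cells, a class with a pooled Sox2 level of 36.0 CPM. Without those cells its Sox2 level was 90.1 CPM. The share of immature neurons was 0.188% in old rTg4510 replicate 2 and 0 in the other 3 animals. The share of barcodes with both Dcx and Sox11 after thinning was 0.126% in the same animal and 0 in the others of its group. In old WT animals that share was 0.135% in replicate 1 and 0 in the other 4. These last values rest on 2 or 3 barcodes each.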

How the results depend on the processing

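No paired analysis was possible because replicate numbers follow accession order and the labels pair no animals. Of 423 alternative values, 359 kept their call or count. Most of the 423 were counts of called pairs, which have no direction and often stayed at 0. Only the shares and the log2 differences of called pairs could change direction, and 0 did. The counts of called pairs moved as follows. Old against young WT went from 0 to 1 when the range of animal numbers was fitted too (Id4 in oligodendrocytes), and leaving out an animal gave 0 to 1. Old against young rTg4510 went from 0 to 1 without a low-count filter (Sox11 in microglia) and to 1 with only the groups compared (Sox11 in oligodendrocyte precursors), and summed over all cells to 1 when that range was fitted (Sox11). Old rTg4510 against old WT went from 2 to 1 with at least 50 barcodes, and 0 to 2 without an animal. Old P301L against old WT went from 2 to 1 with at least 50 barcodes, at least 500 counts or resolution 2, and 0 to 2 without an animal. Old rTta against old WT went from 0 to 1 with only the groups compared (Id4 in oligodendrocytes), and 0 to 1 without an animal. Sox11 in dentate granule neurons was called in 27 of 29 alternatives and Sox4 in microglia in 23 of 29. The cause of these moves was not tested. The age difference in the immature neuron share had an unadjusted exact permutation p of 0.00794 to 0.0286 in 14 alternatives (3 chosen after seeing the data), and -0.563 to -0.350 percentage points without an animal. The p without an animal, 0.0179 or 0.0286, was the smallest each design allows and was not adjusted over the 6 comparisons. The share of barcodes with Dcx and Sox11 differed by -0.279 percentage points when thinned to 1000 counts (exact permutation p = 0.0238, adjusted 0.0857) and by -0.971 unthinned (adjusted 0.0476). It ranged from -0.252 to -0.119 without an animal, with an unadjusted exact permutation p of 0.0357 without young WT replicate 2. Low counts of Dcx and Neurod1 limited which classes could be tested.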

Other observations

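Sox2ot, the noncoding gene that spans Sox2, was chosen after its values were seen. In oligodendrocytes it was higher in old rTta than in old WT animals by 1.70 ± 0.25 on the log2 scale (edgeR adjusted p = 1.4e-05). Sox2 itself differed there by -0.74 ± 0.50 (edgeR adjusted p = 0.649). In oligodendrocytes of old P301L animals Sox2ot differed from old WT by 0.09 ± 0.27. In oligodendrocytes of old rTg4510 animals Sox2ot differed from old WT by -0.01 ± 0.24. The cause of the rTta difference was not tested.

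Hopx, of the stem cell list, was lower in old rTta than in old WT animals in oligodendrocytes, dentate granule neurons and astrocytes, by 3.13, 2.97 and 1.35 on the log2 scale (edgeR adjusted p = 0.000289, 0.0172 and 0.00325).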
